A study of Mus musculus with 11 samples.

Results

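Phospholipid synthesis for the ER membrane was followed through 10 genes, *Pcyt1a*, *Pcyt2*, *Chka*, *Chkb*, *Chpt1*, *Cept1*, *Pemt*, *Etnk2*, *Lpcat3* and *Ptdss1*, chosen by name for their enzymatic step, out of 54232 genes with a count. The choice was made with earlier results of these data known. All 10 had a count in every library and all 10 passed the filter on low counts that left 13303 genes for testing. RNA was sequenced from hepatocytes isolated from adult male C57BL/6 *Xbp1* fl/fl mice, the floxed controls, and from *Xbp1* LKO mice, in which an albumin promoter-driven Cre deletes the same floxed allele in the liver. Mice of both genotypes received chow, or instead a Western diet with fructose and glucose in the drinking water (high fat sugar diet, HFS), for up to 6 weeks. On chow, *Xbp1* fl/fl gave 3 libraries and *Xbp1* LKO gave 2, and on HFS diet each genotype gave 3. The study describes chow-fed groups of equal size, and any further chow-fed *Xbp1* LKO library was not analysed here. A chow library came from a single mouse. An HFS library pooled 2 mice, and the spread among HFS libraries is a spread among pools.

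XBP1 is the transcription factor that the ER stress sensor IRE1 activates by splicing its mRNA, and in other cell types its spliced form is known for enlarging the ER together with the phospholipid that builds its membrane. Phosphatidylcholine, the main phospholipid of that membrane, is made in every cell by the Kennedy pathway: choline is phosphorylated, activated to CDP-choline and joined to diacylglycerol. Phosphatidylethanolamine is made by a parallel branch that starts from ethanolamine. Hepatocytes have a further route, in which phosphatidylethanolamine is methylated stepwise to phosphatidylcholine, and this route supplies phosphatidylcholine for lipoprotein particles and bile as well as for membranes.

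The libraries held 19191032 to 23888401 counts each. Levels are given as CPM (counts scaled to a common library size) after TMM scaling, which corrects for a few very abundant mRNAs taking up a different share of each library. Albumin mRNA (*Alb*) made up 8.06% to 10.9% of all counts for *Xbp1* fl/fl on chow and 5.88% to 7.42% on HFS diet, but only 1.67% and 3.72% for *Xbp1* LKO on chow and 3.33% to 5.40% on HFS diet, and the TMM factors (0.878 to 0.938 in *Xbp1* fl/fl, 1.05 to 1.19 in *Xbp1* LKO) followed the same split. Without TMM scaling, the median of all genes moved toward *Xbp1* LKO by 0.33 on the log2 scale on chow and by 0.26 on HFS diet, so every genotype difference below is a difference relative to the bulk of genes. The targeted gene was lower in each *Xbp1* LKO library (95.7 and 128.2 CPM on chow, 97.3 to 134.7 on HFS diet) than in any *Xbp1* fl/fl library (194.4 to 221.2 and 242.3 to 301.2). The deposited value covers all exons of the gene together, the deleted one included. All 9 hepatocyte markers were present in every group, with a summed level of 127800 to 158800 CPM in chow-fed *Xbp1* fl/fl, 31960 to 61350 in chow-fed *Xbp1* LKO, 105900 to 119700 in HFS-fed *Xbp1* fl/fl and 47890 to 76780 in HFS-fed *Xbp1* LKO libraries. With the diets averaged, 5 of the 9 were lower in *Xbp1* LKO past the threshold and none higher. The summed levels of 8 macrophage markers (15.3 to 73.2 CPM) and 8 endothelial markers (22.8 to 117.1 CPM) were low in all 11 libraries. The 8 macrophage markers all had lower estimates in *Xbp1* LKO on chow (sums of 16.4 to 25.1 CPM against 15.3 to 65.4 CPM) and higher ones on HFS diet (42.8 to 73.2 CPM against 29.6 to 41.4 CPM), none past the threshold. The 8 endothelial markers all had lower estimates in *Xbp1* LKO on both diets, with sums of 22.8 to 29.0 CPM against 36.4 to 84.8 CPM on chow and 55.8 to 87.1 CPM against 71.2 to 117.1 CPM on HFS diet, and 2 of them passed the threshold with the diets averaged. Of 8 stellate cell markers 6 could be tested, all 6 with lower estimates in *Xbp1* LKO on chow and 5 with higher ones on HFS diet, none past the threshold. Of 6 cholangiocyte markers 2 could be tested, and 1 was lower in *Xbp1* LKO past the threshold on chow and with the diets averaged. Of 7 lymphocyte and neutrophil markers 2 could be tested, both with higher estimates in *Xbp1* LKO on each diet, none past the threshold. All 7 summed to 0.85 to 1.35 CPM against 0.40 to 0.94 CPM on chow. On HFS diet they summed to 1.1 to 4.41 CPM against 0.83 to 1.67 CPM. Between diets, all 8 endothelial and all 6 tested stellate markers had higher estimates on HFS diet in both genotypes. With the genotypes averaged, 1 of each passed the threshold. The macrophage markers had higher estimates on HFS diet for all 8 in *Xbp1* LKO and for 4 in *Xbp1* fl/fl, none past the threshold. The part of these cells in the values below was not tested. In bulk RNA, fewer cells of a type and less RNA per cell cannot be told apart. Chow-fed *Xbp1* LKO library 2, with the lowest albumin share, stood apart from its partner for *Chka*, *Pemt* and *Etnk2*, whose values without it are given below.

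With the 2 diets averaged, the 95% interval of the genotype difference lay within a 1.5-fold change in either direction for 8 of the 10 genes, the other 2 being *Pcyt2* and *Chka*. On the single diets, with fewer libraries, this held for 4 of the 10 on chow and 5 on HFS diet. The 8 with the diets averaged include *Cept1*, whose difference was -0.25 on chow and 0.42 on HFS diet. The share of all genes with such an interval is not given, so these counts are not read as a trait of the 10. With the diets averaged, 1 of the 10 passed the threshold (*Pcyt2*, lower), a share near the 11.9% of all genes tested that did (edgeR quasi-likelihood test, Benjamini-Hochberg adjusted p under 0.05). None passed on chow alone, where 4.75% of all genes did, and none on HFS diet alone, where 4.08% did. An unadjusted p under 0.05 was found for 2 of the 10 on chow, 3 on HFS diet and 2 with the diets averaged, beside 19.3%, 17.5% and 25.6% of all genes. DESeq2, run as an alternative, called none of the 10 on either single diet. Over all genes it called 1115 on chow and 981 on HFS diet. With the diets averaged it called 2 of the 10, *Pcyt2* and *Chka*, beside 1940 of all genes. In the edgeR fit the median log2 difference of the 10 between genotypes was -0.05 with the diets averaged, beside 0.01 over all genes. The differences ran from -0.36 for *Pcyt2* to 0.61 for *Chka*. On raw library totals 6 of the 10 passed with the diets averaged, beside 5802 of all genes. All 6 (*Pcyt1a*, *Chka*, *Chkb*, *Chpt1*, *Cept1* and *Pemt*) were higher in *Xbp1* LKO, and that scaling moved the median of all genes by 0.29.

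**Figure D1:**
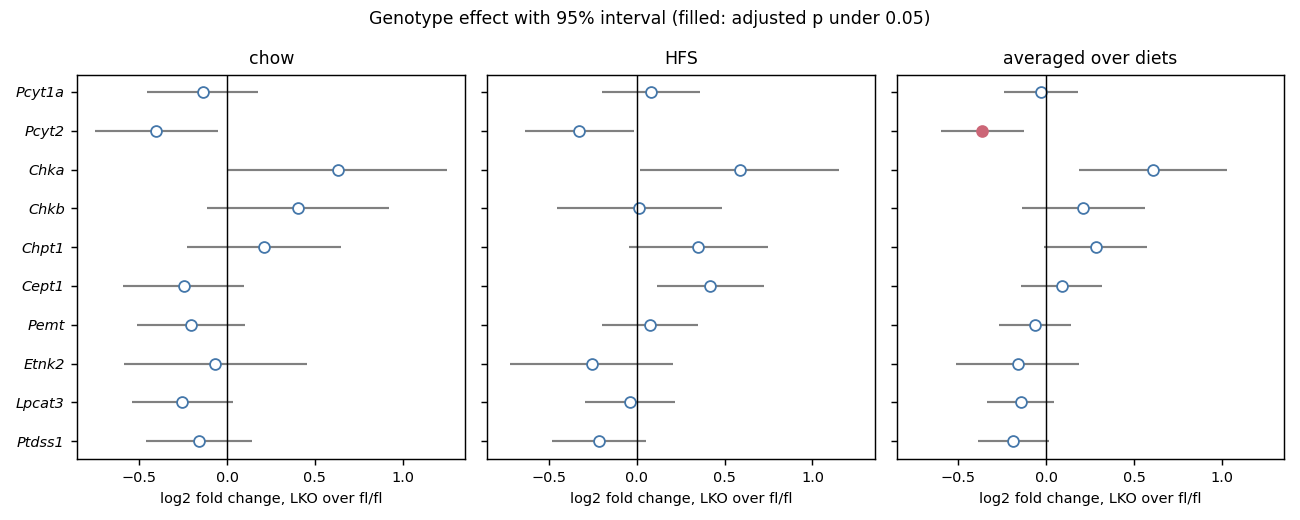
Log2 difference between Xbp1 LKO and Xbp1 fl/fl for each gene on chow, on HFS diet and averaged over the diets (x axis), with 95% intervals as bars, the filled point marking an adjusted p under 0.05. Only Pcyt2, averaged over the diets at -0.36, is filled, and Chka has the highest estimate and the widest intervals.

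Compared per kilobase of exon sequence that no other gene shares, the 10 genes spanned a wide range in chow-fed *Xbp1* fl/fl hepatocytes. *Pemt*, the methyltransferase that turns phosphatidylethanolamine into phosphatidylcholine, stood highest at 170.6 ± 4.75 CPM per kb (SD, n = 3). *Pcyt2* (121.4 ± 16.1) and *Etnk2* (115.9 ± 25.5), 2 enzymes of the ethanolamine branch, came next and overlapped each other. *Lpcat3* followed at 47.3 ± 7.07, then *Chpt1* (31.3 ± 4.26) and *Cept1* (26.0 ± 5.56), which overlapped. *Pcyt1a* (16.1 ± 2.04) and *Ptdss1* (15.6 ± 2.05) overlapped as well. The 2 choline kinases were lowest, *Chkb* at 2.51 ± 0.52 and *Chka* at 1.60 ± 0.28 CPM per kb. Levels set side by side in this way depend on which exons are used, and for *Chkb* only 1297 of 3061 annotated exon bases are free of another gene.

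The choline branch opens with choline kinase, encoded by *Chka* and *Chkb*, which traps choline in the cell as phosphocholine. *Chka* was at 19.7, 15.3 and 21.7 CPM in the chow-fed controls (*Xbp1* fl/fl) and at 16.6 and 41.9 CPM in the 2 chow-fed *Xbp1* LKO libraries. On HFS diet it was at 17.5, 19.95 and 17.7 CPM in *Xbp1* fl/fl and at 27.5, 27.0 and 28.3 CPM in *Xbp1* LKO. The HFS groups therefore did not overlap, while on chow one *Xbp1* LKO library lay within the controls and the other was the highest of all 11. The log2 difference was 0.59 on HFS diet (SE 0.26, adjusted p = 0.27), 0.63 on chow (SE 0.29, adjusted p = 0.26) and 0.61 averaged (SE 0.19, 1.52-fold, 95% interval 1.14 to 2.04, adjusted p = 0.065), and none of these passed the threshold. The chow estimate had no stable direction, since it was -0.19 (adjusted p = 0.83) without chow-fed *Xbp1* LKO library 2 and 1.15 (adjusted p = 0.0051) without library 1. The averaged value was 0.20 (adjusted p = 0.40) and 0.87 (adjusted p = 0.00070) without the same libraries. On HFS diet alone the value stayed between 0.55 and 0.65 whichever HFS library was left out. On raw library totals the averaged value was 0.91 (adjusted p = 0.0063). A fit of the 2 HFS groups on their own passed the threshold for *Chka* (0.59, adjusted p = 0.010), as did DESeq2 with the diets averaged (0.60, adjusted p = 0.026) and the fit without the filter on low counts (0.63, adjusted p = 3.2e-06). That unfiltered fit called more genes in every comparison, such as 1507 against 632 for genotype on chow and 269 against 0 for the interaction of genotype and diet.

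*Chkb* had very few counts, 2.49 to 4.48 CPM over the 11 libraries. Of its exon sequence, 50.7% is shared on the same strand with the readthrough gene *Gm44502*, which was listed at 0 in all libraries. Across the whole table, 733 of 739 genes lying wholly within the exons of another gene on the same strand were at 0 in every library, beside 52.0% of all genes, so reads from the shared bases may be missing from the count of *Chkb*. The log2 difference averaged over diets was 0.21 (SE 0.16, adjusted p = 0.47), and on HFS diet it was 0.02 (SE 0.21, adjusted p = 0.99). On chow it was 0.41 (SE 0.24, adjusted p = 0.39), and the groups did not overlap there. On raw library totals the averaged difference was 0.50 (adjusted p = 0.032).

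Phosphocholine is activated to CDP-choline by CTP:phosphocholine cytidylyl transferase, the rate-limiting enzyme of the pathway, whose alpha form is encoded by *Pcyt1a*. *Pcyt1a* was at 113.6, 118.8 and 92.8 CPM in chow-fed *Xbp1* fl/fl and 101.6 and 95.2 CPM in chow-fed *Xbp1* LKO libraries. On HFS diet it was at 82.3, 94.3 and 94.9 CPM in *Xbp1* fl/fl and 96.2, 107.4 and 83.8 CPM in *Xbp1* LKO. The groups overlapped on both diets. The averaged log2 difference was -0.03 (SE 0.10, adjusted p = 0.90), and its 95% interval -0.24 to 0.18, lay within a 1.5-fold change in either direction. The value depended on the scaling: on raw library totals it was 0.27 (adjusted p = 0.040), near the 0.29 by which the median of all genes moved with that scaling. The gene for the beta form, *Pcyt1b*, had at most 6 counts in any library and was not tested. Over the 11 libraries, the genes whose centred log2 CPM lay closest to that of *Pcyt1a*, out of 11130 compared, were *Cmtm8* (root mean square difference 0.081), *Zdhhc4* (0.088) and *Cfl1* (0.098).

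Because *Pcyt1a* carries the rate-limiting step, the 250 bases before its most upstream RefSeq start (chr16:32430671-32430920, plus strand, GRCm38) are shown, with a match to the sterol response element in capitals. The same stretch for *Chka* (chr19:3851523-3851772, plus strand), the gene with the highest genotype estimate, is shown with its CCAAT boxes in capitals.
*Pcyt1a*: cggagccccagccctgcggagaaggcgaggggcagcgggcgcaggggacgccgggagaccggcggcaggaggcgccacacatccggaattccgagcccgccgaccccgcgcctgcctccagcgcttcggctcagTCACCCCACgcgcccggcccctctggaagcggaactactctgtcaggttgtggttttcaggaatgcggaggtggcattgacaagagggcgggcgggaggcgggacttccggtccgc
*Chka*: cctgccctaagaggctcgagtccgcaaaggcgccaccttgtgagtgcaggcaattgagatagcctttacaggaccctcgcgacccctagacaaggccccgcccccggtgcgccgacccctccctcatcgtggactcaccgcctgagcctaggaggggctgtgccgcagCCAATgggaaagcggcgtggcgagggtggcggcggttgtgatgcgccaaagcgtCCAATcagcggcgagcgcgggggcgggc

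Promoter windows from 250 bases before to 50 bases after the start were in the RefSeq table (GRCm38.p6) for 8 of the 10 genes, with 13 windows in all, and both strands were searched. The sterol response element, TCACNCCAC, was found in 2 overlapping windows of *Pcyt1a*, at the same site, and in 1.24% of all 32851 windows of that length. The XBP1-binding core GCCACGT was found in 1 window of *Cept1*, and in 2.58% of all windows. That window belongs to a start inside the annotated gene, and the 30 bases around the match (chr3:106547614-106547643, minus strand) are shown with the core, which is read on the opposite strand, in capitals.
*Cept1*: ggatgttgcggACGTGGCggggcggttttg

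None of the 13 windows held the unfolded protein response element TGACGTGG (0.676% of all windows), the ER stress response element (0.119%) or its type II form (0.0365%). The CCAAT box, which is part of the ER stress response element, was found in 6 of the 13 windows, 1 each of *Chka*, *Chkb*, *Chpt1*, *Cept1*, *Pemt* and *Lpcat3*, beside 37.4% of all windows. These matches describe the letters in the windows and say nothing of binding.

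The last step of the branch joins CDP-choline to diacylglycerol. *Chpt1* encodes the choline phosphotransferase, and *Cept1* encodes an enzyme that accepts CDP-choline and CDP-ethanolamine alike. *Chpt1* was at 208.2 to 273.4 CPM in chow-fed *Xbp1* fl/fl, 270.8 and 283.8 CPM in chow-fed *Xbp1* LKO, 215.5 to 279.6 CPM in HFS-fed *Xbp1* fl/fl and 228.8 to 368.8 CPM in HFS-fed *Xbp1* LKO libraries. The groups overlapped on both diets, and the averaged log2 difference of 0.28 (SE 0.13, adjusted p = 0.22) missed the threshold. On raw library totals the averaged difference was 0.57 (adjusted p = 0.0064).

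In the fit of all 11 libraries, *Cept1* was the gene of the 10 whose genotype difference changed most between diets. On chow it was at 53.4, 53.2 and 75.8 CPM in *Xbp1* fl/fl and at 55.8 and 46.8 CPM in *Xbp1* LKO. On HFS diet it was at 52.2, 48.9 and 54.1 CPM in *Xbp1* fl/fl and at 70.8, 71.7 and 65.0 CPM in *Xbp1* LKO. The HFS groups did not overlap, but 1 chow-fed control library was as high as the HFS-fed *Xbp1* LKO libraries. The log2 difference was 0.42 on HFS diet (SE 0.14, 1.34-fold, 95% interval 1.08 to 1.65, adjusted p = 0.13) and -0.25 on chow (SE 0.16, adjusted p = 0.43). The interaction of genotype and diet was 0.67 (SE 0.21, unadjusted p = 0.0087, adjusted p = 0.69), and no gene in the whole table (0% of 13303) passed the edgeR threshold for it, while 6.13% had an unadjusted p under 0.05 and DESeq2 called 31 genes, none of them among the 10. Without chow-fed *Xbp1* fl/fl library 3, the interaction of *Cept1* was 0.48 and its chow difference -0.06. Without chow-fed *Xbp1* LKO library 2, its interaction was 0.55, below the 0.78 of *Chka*. The fit of the 2 HFS groups on their own passed for *Cept1* (0.42, adjusted p = 0.027). Averaged over diets, *Cept1* was at 0.09 (adjusted p = 0.67) with TMM scaling and 0.38 (adjusted p = 0.015) on raw library totals. The exons of *Cept1* share 24.9% of their bases with genes on the opposite strand, *Dram2* and *Dennd2d*. *Dram2* was higher in HFS-fed *Xbp1* LKO hepatocytes too (log2 difference 0.38, adjusted p = 0.041), and *Dennd2d* differed by 0.17 (adjusted p = 0.71). Of genes lying wholly within exons on the opposite strand, 478 of 482 were at 0 in every library, so reads from such bases may be missing from the count of *Cept1*. Whether reads of *Dram2* and *Cept1* were mixed was not tested.

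**Figure D2:**
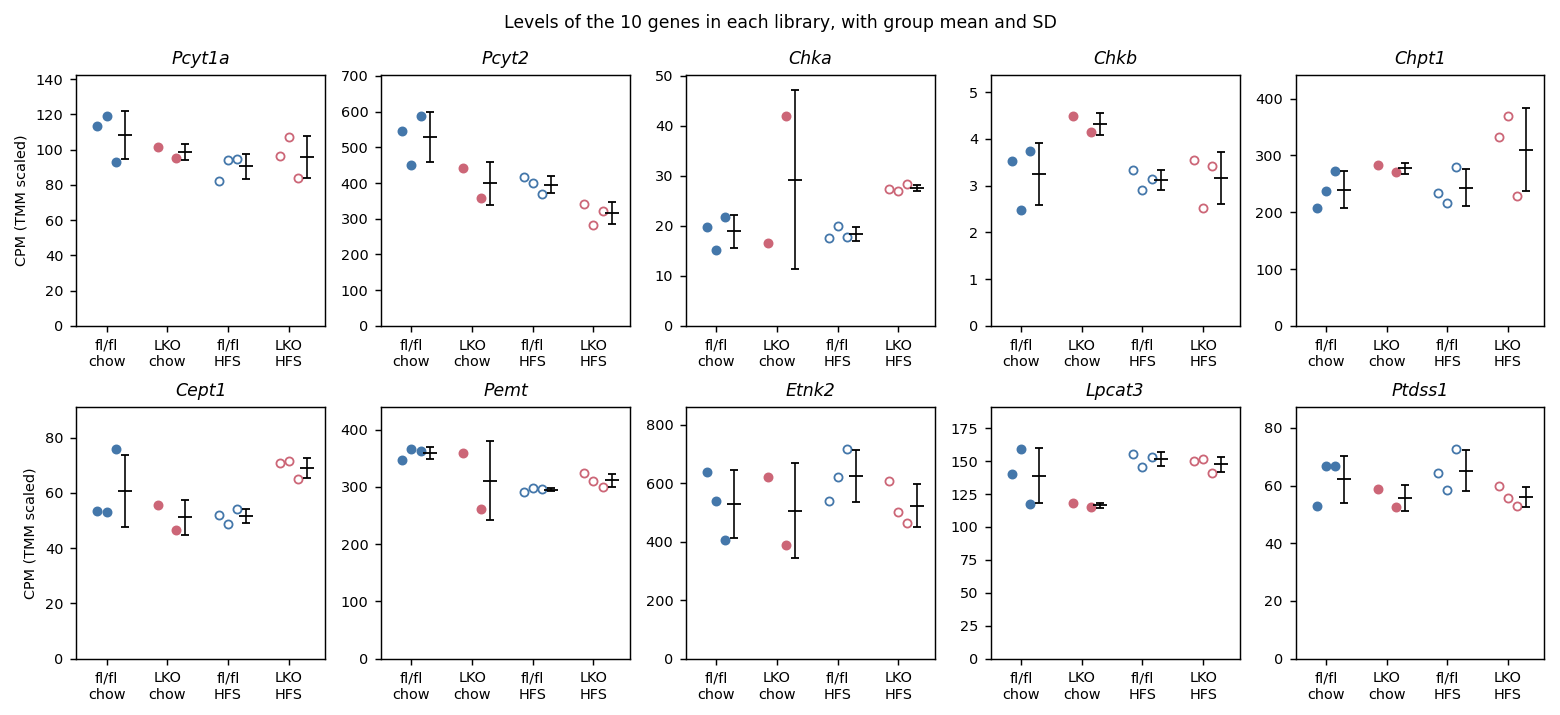
CPM after TMM scaling (y axis, from 0) of each of the 10 genes in each of the 11 libraries, by genotype and diet (x axis), with the mean and SD of each group as a bar to the right of its points. Pcyt2 is lower in Xbp1 LKO than in Xbp1 fl/fl on each diet without overlap, Chka and Cept1 are higher in Xbp1 LKO on HFS diet without overlap, and for Chka the 2 chow-fed Xbp1 LKO libraries lie at 16.6 and 41.9 CPM.

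In the ethanolamine branch, *Pcyt2* encodes the ethanolamine-phosphate cytidylyl transferase, the enzyme that corresponds to *Pcyt1a* and sets the pace of phosphatidylethanolamine synthesis. *Pcyt2* was at 546.6, 450.2 and 586.6 CPM in the chow-fed controls and at 442.1 and 357.0 CPM in chow-fed *Xbp1* LKO libraries. On HFS diet it was at 417.5, 399.2 and 369.1 CPM in *Xbp1* fl/fl and at 341.9, 282.5 and 322.0 CPM in *Xbp1* LKO. *Xbp1* LKO libraries were lower than the controls on the same diet without overlap, by a narrow margin on chow. Averaged over the diets *Pcyt2* was 0.78-fold the control level (log2 difference -0.36, SE 0.11, 95% interval in fold 0.66 to 0.91, adjusted p = 0.048). Its single-diet differences were -0.40 on chow (SE 0.16, adjusted p = 0.19) and -0.33 on HFS diet (SE 0.14, adjusted p = 0.26). The call was marginal, since it was lost when any library was left out in turn other than chow-fed *Xbp1* fl/fl library 2 or chow-fed *Xbp1* LKO library 1, with log2 differences of -0.45 to -0.29 and adjusted p-values of 0.032 to 0.21, the highest without chow-fed *Xbp1* LKO library 2. DESeq2 gave -0.37 (adjusted p = 0.0061), the fit without the filter on low counts gave -0.35 (adjusted p = 0.074), and scaling to raw library totals gave -0.08 (adjusted p = 0.56).

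*Pcyt2* also had the widest range of group means of the 10, 0.74 on the log2 scale, from chow-fed *Xbp1* fl/fl down to HFS-fed *Xbp1* LKO. The 2 intermediate groups, chow-fed *Xbp1* LKO (399.6 ± 60.2 CPM, SD, n = 2) and HFS-fed *Xbp1* fl/fl (395.3 ± 24.5 CPM, n = 3), overlapped. The genes closest to *Pcyt2* over the 11 libraries were *Tlcd1* (root mean square difference 0.118 in centred log2 CPM), *Dbi* (0.119) and *Echdc1* (0.120).

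*Etnk2*, an ethanolamine kinase of liver, starts this branch and varied widely within groups. It was at 407.3 to 639.7 CPM in chow-fed *Xbp1* fl/fl, 390.3 and 620.2 CPM in chow-fed *Xbp1* LKO, 538.5 to 716.3 CPM in HFS-fed *Xbp1* fl/fl and 462.4 to 606.0 CPM in HFS-fed *Xbp1* LKO libraries. The groups overlapped on both diets, with an averaged log2 difference of -0.16 (SE 0.16, adjusted p = 0.59). Without chow-fed *Xbp1* LKO library 2 this was -0.014 (adjusted p = 0.98), and the chow difference turned from -0.07 (adjusted p = 0.92) to 0.23 (adjusted p = 0.86).

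*Pemt*, the hepatocyte enzyme that links the 2 branches, was at 347.5, 366.0 and 363.5 CPM in chow-fed *Xbp1* fl/fl and at 359.6 and 262.4 CPM in chow-fed *Xbp1* LKO libraries. On HFS diet it was at 292.1, 298.0 and 296.6 CPM in *Xbp1* fl/fl and at 323.9, 310.7 and 300.5 CPM in *Xbp1* LKO. The HFS groups were separated by less than 3 CPM, and the low chow-fed *Xbp1* LKO library was library 2. The averaged log2 difference was -0.07 (SE 0.09, 95% interval in fold 0.83 to 1.10, adjusted p = 0.73), and on raw library totals it was 0.22 (adjusted p = 0.049). Without chow-fed *Xbp1* LKO library 2 the averaged difference was 0.039 (adjusted p = 0.88), and the chow difference went from -0.21 (adjusted p = 0.47) to 0.00 (adjusted p = 1.00).

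*Lpcat3*, which places polyunsaturated acyl chains into lysophosphatidylcholine, was at 117.6 to 159.0 CPM in chow-fed *Xbp1* fl/fl, 115.0 and 117.8 CPM in chow-fed *Xbp1* LKO, 145.4 to 155.6 CPM in HFS-fed *Xbp1* fl/fl and 140.9 to 151.5 CPM in HFS-fed *Xbp1* LKO libraries. Its averaged log2 difference between genotypes was -0.15 (SE 0.09, adjusted p = 0.34). *Ptdss1* encodes phosphatidylserine synthase 1, which exchanges the choline of phosphatidylcholine for serine. It was at 52.7 to 66.9, 52.4 and 58.9, 58.3 to 72.6 and 52.9 to 59.8 CPM in the same 4 groups, with an averaged log2 difference of -0.19 (SE 0.09, adjusted p = 0.23). Both genes overlapped between genotypes on each diet.

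Counted over all 10, the genotypes did not overlap for 2 genes on chow (*Pcyt2* lower and *Chkb* higher in *Xbp1* LKO), where 31.3% of all genes did not overlap. On HFS diet this held for 4 genes (*Pcyt2* lower, and *Chka*, *Cept1* and *Pemt* higher), beside 26.1% of all genes. With 10 genes, neither count is read as a result about them.

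The HFS diet changed none of the 10 genes past the threshold, in *Xbp1* fl/fl (0.428% of all genes passed), in *Xbp1* LKO (0.0601%) or averaged over the genotypes (1.1%). Of the 10, 2 had an unadjusted p under 0.05 in each of these comparisons, beside 8.95%, 12.7% and 14.8% of all genes. DESeq2 called none of the 10 in either genotype, beside 175 of all genes in *Xbp1* fl/fl and 208 in *Xbp1* LKO. *Pcyt2* had the lowest estimate of the 10 in *Xbp1* fl/fl and averaged over the genotypes, with a log2 difference between HFS diet and chow of -0.42 in *Xbp1* fl/fl (SE 0.14, adjusted p = 0.37), -0.34 in *Xbp1* LKO (SE 0.16, adjusted p = 0.40) and -0.38 averaged (SE 0.11, unadjusted p = 0.0040, adjusted p = 0.12). In *Xbp1* LKO the lowest estimate was that of *Chkb*, at -0.45 (SE 0.23, adjusted p = 0.45). DESeq2 placed the averaged diet difference of *Pcyt2* past the threshold (-0.38, adjusted p = 0.014). *Lpcat3* was the highest averaged over genotypes (0.23, SE 0.09, adjusted p = 0.24), with 0.34 in *Xbp1* LKO (SE 0.13, adjusted p = 0.32) and 0.12 in *Xbp1* fl/fl (SE 0.12, adjusted p = 0.84). *Cept1* was at 0.43 in *Xbp1* LKO (SE 0.16, adjusted p = 0.30) and -0.23 in *Xbp1* fl/fl (SE 0.14, adjusted p = 0.70). *Pemt* was at -0.28 in *Xbp1* fl/fl (SE 0.12, adjusted p = 0.55) and 0.00 in *Xbp1* LKO (SE 0.14, adjusted p = 1.00), where it was -0.20 without chow-fed library 2 and 0.24 without library 1.

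The diets did not overlap for 2 genes in *Xbp1* fl/fl (*Pcyt2* and *Pemt*, both lower on HFS diet), beside 13.7% of all genes. In *Xbp1* LKO they did not overlap for 4 genes (*Pcyt2* and *Chkb* lower, *Cept1* and *Lpcat3* higher on HFS diet), beside 31.1% of all genes, with 2 chow libraries in that comparison.

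**Figure D3:**
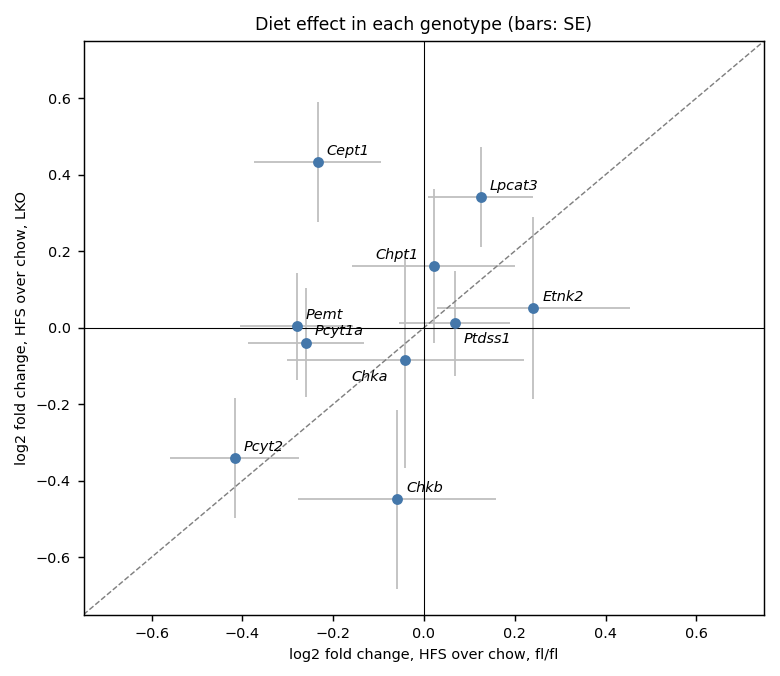
Log2 difference between HFS diet and chow in Xbp1 fl/fl (x axis) and in Xbp1 LKO (y axis) for each of the 10 genes, with SE as bars and the dashed line marking equal values. Pcyt2 lies low on both axes (-0.42 and -0.34), and Cept1 lies farthest from the line (-0.23 and 0.43).

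Ratios of 2 genes within a library do not depend on the scaling between libraries, and 4 were compared between genotypes by an exact permutation test within diets, counting differences in both directions (200 arrangements, smallest possible p = 0.0050). *Pemt* to *Pcyt1a* compares mRNAs of the 2 routes to phosphatidylcholine, and flux through the routes was not measured. Its mean log2 ratio was 1.74 ± 0.20 (SD, n = 3) in chow-fed *Xbp1* fl/fl and 1.64 ± 0.25 (n = 2) in chow-fed *Xbp1* LKO. On HFS diet it was 1.71 ± 0.10 (n = 3) in *Xbp1* fl/fl and 1.71 ± 0.16 (n = 3) in *Xbp1* LKO. The genotypes differed by -0.05 (exact p = 0.67, adjusted over the 4 ratios 0.67), less than the spread within any group. *Pcyt2* to *Pcyt1a*, the cytidylyl transferase mRNAs of the ethanolamine and choline branches, was lower in *Xbp1* LKO by 0.27 on chow and 0.41 on HFS diet. Its mean difference was -0.34 (exact p = 0.070, adjusted 0.28). *Chka* to *Chkb* differed by 0.33 (exact p = 0.29, adjusted 0.38), with 0.07 on chow and 0.59 on HFS diet. *Chpt1* to *Cept1* differed by 0.45 on chow and -0.09 on HFS diet, with a mean of 0.18 (exact p = 0.25, adjusted 0.38). None of the 4 passed the threshold after adjustment.

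**Figure D4:**
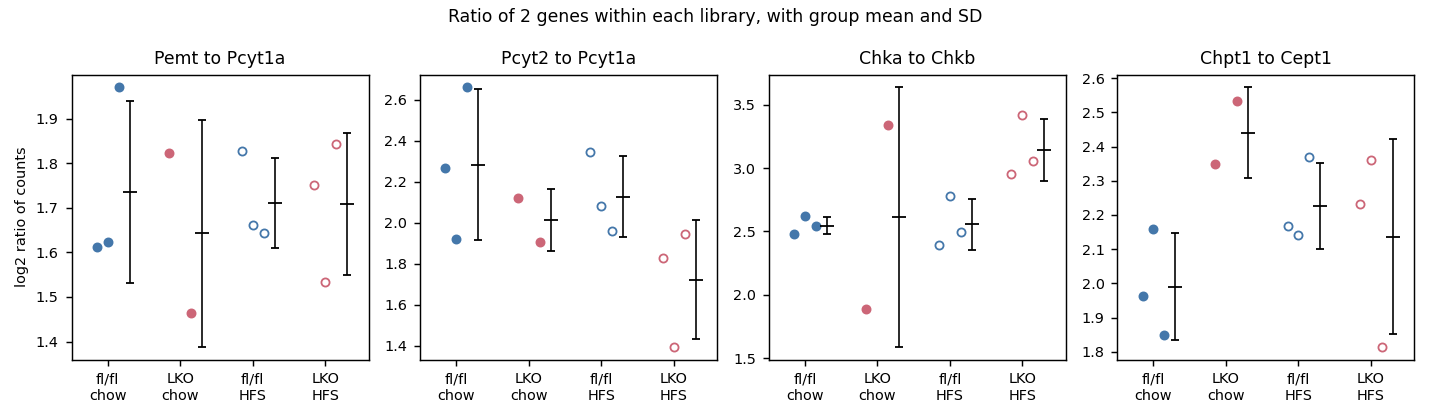
Log2 ratio of the counts of 2 genes within each library (y axis) by genotype and diet (x axis), with the mean and SD of each group to the right of its points. Pemt to Pcyt1a overlaps in all 4 groups, and Pcyt2 to Pcyt1a has its lowest mean, 1.72, in HFS-fed Xbp1 LKO.

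The same steps are served by other genes, and 62 of them were examined in 6 lists: other genes of the choline and ethanolamine branches, phosphatidylserine, the CDP-diacylglycerol branch, phosphatidic acid and diacylglycerol supply, acyl chain remodelling, and methyl donors with choline oxidation. Of these, 54 passed the filter on low counts. With the diets averaged, 4 were higher and 4 lower in *Xbp1* LKO past the threshold, beside the 11.9% of all genes given above, and the median log2 difference of the 54 was -0.03. On chow 2 were lower and none higher, where 4.75% of all genes passed. On HFS diet 1 was lower and none higher, where 4.08% passed. With so few calls, no direction of the lists is read from them. None passed the threshold for the diet effect, where 0.428% of all genes passed in *Xbp1* fl/fl and 0.0601% in *Xbp1* LKO.

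Of the other genes of the choline and ethanolamine branches, 7 were tested. With the diets averaged, 1 was higher and 2 were lower past the threshold, beside 11.9% of all genes. The list is small and was chosen with earlier results of these data known, so this count is not read as a result about it. *Slc44a1*, a choline transporter, was at 49.8, 49.1 and 42.3 CPM in chow-fed *Xbp1* fl/fl and 25.5 and 23.4 CPM in chow-fed *Xbp1* LKO. On HFS diet it was at 41.1, 42.0 and 47.5 CPM in *Xbp1* fl/fl and 23.95, 27.7 and 23.0 CPM in *Xbp1* LKO. It thus fell in all 5 *Xbp1* LKO libraries, with a log2 difference of -0.94 on chow (SE 0.12, adjusted p = 0.0036), -0.81 on HFS diet (SE 0.11, adjusted p = 0.0032) and -0.87 averaged (SE 0.08, adjusted p = 0.00012). Without chow-fed *Xbp1* LKO library 2, the chow value was -0.88 (adjusted p = 0.051). Leaving out each library in turn kept the averaged value between -0.92 and -0.84.

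*Etnk1*, the other ethanolamine kinase, was lower in *Xbp1* LKO with the diets averaged, at 62.4 and 66.1 CPM against 101.0, 104.0 and 101.7 CPM on chow, and at 82.2, 84.2 and 66.3 CPM against 88.0, 99.3 and 90.9 CPM on HFS diet. The averaged log2 difference was -0.46 (SE 0.08, adjusted p = 0.0038), and -0.17 (adjusted p = 0.12) on raw library totals. The difference was -0.67 on chow (adjusted p = 0.012) and -0.26 on HFS diet (adjusted p = 0.25), where it missed the threshold, and the chow call was lost without chow-fed *Xbp1* LKO library 1 (-0.63, adjusted p = 0.051) or library 2 (-0.71, adjusted p = 0.092). *Selenoi*, the phosphotransferase that completes phosphatidylethanolamine, was higher, with 85.9 and 106.5 CPM against 59.0, 56.8 and 84.2 CPM on chow and 93.6, 96.2 and 112.3 CPM against 73.2, 72.7 and 66.1 CPM on HFS diet. Its averaged log2 difference was 0.52 (SE 0.12, adjusted p = 0.014), and 0.44 (adjusted p = 0.081) without chow-fed *Xbp1* LKO library 2. In the ethanolamine branch, with the diets averaged, *Etnk1* and *Pcyt2* were thus called lower, *Selenoi* was called higher and *Etnk2* was not called. These calls have limits. That of *Pcyt2* was marginal, as given above, and on raw library totals *Pcyt2* (-0.08) and *Etnk1* (-0.17) both missed the threshold. *Selenoi* passed on neither single diet (adjusted p = 0.11 on chow and 0.099 on HFS diet).

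The remaining lists held isolated changes, given as averaged log2 differences. In the CDP-diacylglycerol branch, *Cdipt*, the phosphatidylinositol synthase, was higher (0.30, SE 0.08, adjusted p = 0.025), 1 of 7 tested. Among 12 tested genes of phosphatidic acid and diacylglycerol supply, *Gpat3*, a glycerol-3-phosphate acyltransferase, was higher (0.91, SE 0.26, adjusted p = 0.043) at a low level of 3.43 to 19.8 CPM. Of 11 genes of acyl chain remodelling, *Pla2g12a*, a secreted phospholipase A2, was higher (0.49, SE 0.14, adjusted p = 0.043) and *Lpgat1*, a lysophospholipid acyltransferase, was lower (-0.40, SE 0.09, adjusted p = 0.018). Of 11 genes of methyl donors and choline oxidation, *Ahcy*, which clears the S-adenosylhomocysteine left by methylation, was lower (-0.43, SE 0.11, adjusted p = 0.029). On raw library totals *Lpgat1* was at -0.10 (adjusted p = 0.39) and *Ahcy* at -0.15 (adjusted p = 0.23). All 6 phosphatidylserine genes missed the threshold, with the smallest p for *Ptdss2* (0.24, SE 0.09, adjusted p = 0.13). The calls of *Cdipt*, *Gpat3*, *Lpgat1*, *Pla2g12a* and *Ahcy* were each lost without chow-fed *Xbp1* LKO library 2 (adjusted p = 0.13, 0.15, 0.061, 0.25 and 0.14, respectively). In addition, *Cdipt* lost its call without HFS-fed *Xbp1* fl/fl library 1 or HFS-fed *Xbp1* LKO library 3, and *Gpat3*, *Pla2g12a* and *Ahcy* lost theirs in 8, 8 and 7 of the 11 fits with 1 library left out.

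**Figure D5:**
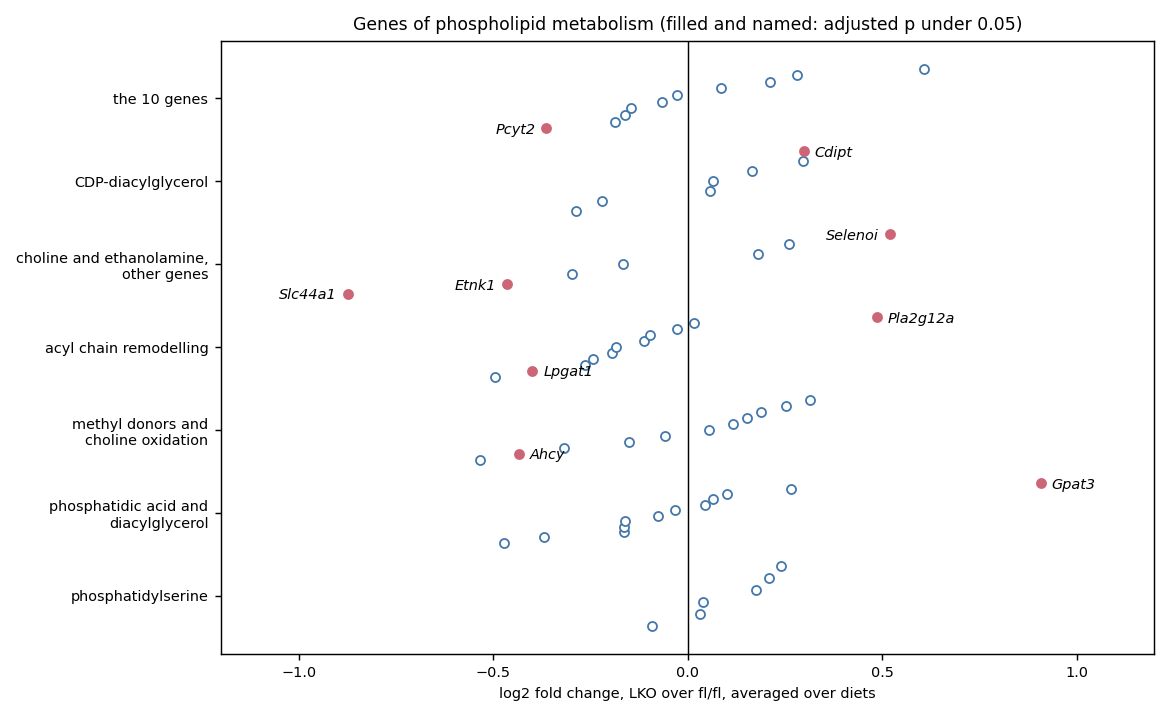
Log2 difference between Xbp1 LKO and Xbp1 fl/fl averaged over the diets (x axis) for the 10 genes and for the 54 tested genes of the 6 lists (y axis, 1 point a gene), with filled and named points past the threshold. The 10 genes lie between -0.36 and 0.61, and Slc44a1 at -0.87 and Gpat3 at 0.91 lie farthest from 0.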

How the data were processed

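The authors deposited whole-number read counts per Ensembl gene for each library, without normalization. Per the labels, the submitters' processing notes name cutadapt 1.13, STAR, HTSeq 0.6.1p1, DESeq2 and mm10, whereas the methods of the study name kallisto with tximport. Symbols and positions came from GENCODE M21 (GRCm38), which holds 54165 of the 54232 identifiers. Counts were scaled by TMM, filtered (filterByExpr, minimum count 10) and fitted in edgeR 4.0.16 (R 4.3.3) with a quasi-likelihood model of the 4 groups over all 11 libraries, since a group holds only 2 or 3 libraries, with Benjamini-Hochberg adjustment over 13303 genes and a threshold of 0.05. Fold intervals are 95% intervals of the fit. DESeq2 1.42.0, other scalings and filters, a replicate block and each library left out were run as alternatives, and the code was tested on simulated counts. Groups came from the sample labels. The 10 genes, the lists and the markers were chosen with earlier results of these data known, and 1 gene is not reported here. Genes named are the 10, and in each list those past the threshold or else the one with the smallest p, with genes overlapping the 10 and, for *Pcyt1a* and the gene of widest range, the 3 closest in pattern among genes of at least 1 CPM on average. Libraries of a group are separate animals or pools, and differed far beyond counting error (chi-square of 27.9 to 101.6 for each degree of freedom), so no counting intervals are given.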

Additional observations from a re-analysis of the deposited data

How the results depend on the processing

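Of 1010 recomputed effects of the 10 genes, 980 kept their side of the threshold, 12 lost and 16 gained a call, and 2 turned from below 0 to a call above 0: on library totals, *Pcyt1a* was at 0.27 and *Pemt* at 0.22 averaged over diets. Another 59 changed sign with no call, 13 of them on library totals. Only 1 effect was called in the report, *Pcyt2* for genotype averaged over diets, and all 12 lost calls were of it. The 980 are therefore mostly effects that had no call to lose. Genes called among the 10 numbered 0 for genotype on chow in the report and 1 on library totals and without the filter. For genotype on HFS diet, 0 became 2 on library totals, 1 without the filter and 2 with only the 2 groups. For genotype averaged, 1 became 2 with DESeq2, 6 on library totals and 0 with the replicate block, and without the filter it stayed 1 but was *Chka* (0.63, adjusted p = 3.2e-06), not *Pcyt2* (-0.35, adjusted p = 0.074). For diet averaged, 0 became 1 with DESeq2. With 1 library left out, the count ranged from 0 to 1 for genotype on chow and from 0 to 2 averaged. Each of these counts stands beside the calls over all genes given next, and none is read as a result about the 10. Over all genes, calls for genotype on chow (632) became 1115 with DESeq2, 3000 on library totals, 1507 without the filter and 233 with only the 2 groups, and 69 to 762 with 1 library left out. For genotype on HFS diet (543) they became 981, 1483 and 1438 under the first 3, and 809 with only the 2 groups. They ran from 184 to 532 with 1 library left out. For diet in *Xbp1* fl/fl (57) they became 175 with DESeq2 and 499 without the filter, and 6 to 43. For diet in *Xbp1* LKO (8) they became 208, 722, 19 with the replicate block and 0 with only the 2 groups, and 0 to 36. For the interaction (0) they became 31 with DESeq2 and 269 without the filter. For genotype averaged (1582) they became 1940 with DESeq2, 5802 on library totals, 2325 without the filter and 1356 with the replicate block. They ranged from 846 to 1735 with 1 library left out. For diet averaged (146) they became 525 with DESeq2 and 1003 without the filter, and 58 to 266. Same-numbered libraries are different animals, and their deviations correlated at -0.20 to 0.23 over 15 pairs, so the replicate block (*Pcyt2* averaged -0.36, adjusted p = 0.055) is no paired test. The causes were not tested. With 2 or 3 libraries a group, precision is limited: on a single diet the 95% interval lay within 1.5-fold for only 4 (chow) and 5 (HFS diet) of the 10 genes.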
